A study of Mus musculus with 8 samples.

Results

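Lung macrophage identity genes, 10 in all, were followed in lung RNA of LPS-treated mice with and without tangeretin. They were taken by symbol, 10 of 24584 genes in the table, and all 10 had enough reads to be among the 15706 genes tested. Adgre1, Cd68 and Csf1r mark macrophages in general, and Marco, Siglecf, Itgax, Fabp4 and Chil3 mark mainly alveolar macrophages. Mrc1 and Cd163 were grouped as genes of interstitial or alternatively activated macrophages. Alveolar macrophages can also express Mrc1. Lungs came from male ICR mice, an outbred strain, aged 6 to 8 weeks and wild type in genotype. Each of the 4 mice of the LPS group received LPS from Escherichia coli O111:B4 by intraperitoneal injection at 5 mg/kg. Each of the 4 mice of the LPS + Tan group received the same LPS and, 30 min earlier, tangeretin, a citrus flavonoid, intraperitoneally at 50 mg/kg. Lung tissue was collected 12 h after LPS in both groups. The comparison is therefore between LPS-treated animals only, and no untreated animals and none given tangeretin alone are analysed here.

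Alveolar macrophages live on the air side of the alveoli, where they clear surfactant and inhaled particles, and they depend on the growth factor GM-CSF and the nuclear receptor PPAR-gamma. Interstitial macrophages lie in the lung tissue around airways and vessels and depend more on CSF1 signalling. During endotoxin challenge monocytes enter the lung and can take on macrophage features, and the receptors that mark resident cells can be lost from a cell while it persists. In RNA from whole lung, fewer macrophages and less RNA of a gene per macrophage cannot be told apart, which holds for every value given here.

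The 8 libraries held 38895654 to 39931970 reads assigned to genes, so that depth was nearly equal. The tissue was lung by its defining transcripts. Scgb1a1 of airway club cells lay between 25876 and 38721 FPKM (fragments per kilobase of gene, scaled to the depth of the library), Sftpc of alveolar type 2 cells between 4144 and 8616 FPKM and Ager of alveolar type 1 cells between 408 and 552 FPKM.

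All 10 macrophage genes were protein coding in the RefSeq annotation of GRCm38.p6. Among the general markers, Adgre1 lay at chr17:57358581-57483529 and Cd68 at chr11:69664213-69666170. Among the alveolar genes, Marco lay at chr1:120474538-120505024, Siglecf at chr7:43351341-43359475, Itgax at chr7:128129526-128150657, Fabp4 at chr3:10204342-10208616 and Chil3 at chr3:106147554-106167564. Mrc1 lay at chr2:14229414-14332023 and Cd163 at chr6:124304636-124330529. The minus-strand long non-coding gene Gm52877, at chr6:124312044-124321615, lies within Cd163.

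Promoters of 7 of the 10 genes were found among the RefSeq promoters of GRCm38.p6, each spanning 250 bases before to 50 bases after the start. They were searched for the core site of PU.1, the transcription factor on which the macrophage lineage depends, written as GAGGAA or, on the other strand, TTCCTC. This hexamer occurred in 4 of the 7 promoters (Marco, Mrc1, Siglecf and Cd68) and in 28.3% of all 32851 promoters of the same length. The upstream stretches that hold it are shown because they are the part of each gene where a lineage factor of macrophages could be read from sequence, with the hexamer in capitals.
Marco, chr1:120505135-120505200, minus strand, hexamer from base -146: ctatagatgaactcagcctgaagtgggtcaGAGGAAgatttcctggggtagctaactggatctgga
Mrc1, chr2:14229349-14229413, plus strand, hexamer from base -35: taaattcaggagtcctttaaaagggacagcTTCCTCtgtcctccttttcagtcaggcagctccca
Siglecf, chr7:43351246-43351311, plus strand, hexamer from base -65: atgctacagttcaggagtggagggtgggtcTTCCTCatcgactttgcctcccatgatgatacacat
Cd68, chr11:69666360-69666420, minus strand, hexamer from base -225: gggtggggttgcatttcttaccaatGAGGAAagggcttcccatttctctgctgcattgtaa
The Mrc1 promoter held the hexamer at 2 further places, from bases -180 and -167, and the Cd68 promoter held it once more after the start. The MAF core TGCTGA or TCAGCA, named for a family of macrophage factors, was found in 2 of the 7 promoters (Chil3 and Siglecf) and in 19.5% of all promoters. The PPAR core AGGTCA or TGACCT was found in 0 of the 7 and in 16.3% of all promoters. These are matches of letters in a short window and not shown binding sites.

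Per length, Chil3 was by far the most abundant of the macrophage genes. It encodes the secreted chitinase-like protein Ym1 and had a level of 899 ± 265 FPKM (SD, n = 8), which placed it at rank 30 among all tested genes. Marco, a scavenger receptor for bacteria, followed at 67.4 ± 12.8 FPKM. Cd68, a lysosomal glycoprotein, had 52.1 ± 6.99 FPKM and Fabp4, a fatty acid binding protein, 49.5 ± 7.33 FPKM. Mrc1 (the mannose receptor CD206), Csf1r (the receptor for CSF1 and IL-34) and Adgre1 (the macrophage antigen F4/80) were close together, at 27.9 ± 5.62, 27.2 ± 7.96 and 24.8 ± 5.97 FPKM. Itgax (the integrin subunit CD11c) had 5.54 ± 1.13 FPKM, Cd163 (the scavenger receptor for haemoglobin bound to haptoglobin) 2.65 ± 0.850 FPKM and Siglecf (a sialic acid binding receptor of alveolar macrophages and eosinophils) 2.63 ± 0.884 FPKM.

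Only 4 steps in this order were clear in every sample. Chil3 was above Marco, Fabp4 above Mrc1, Adgre1 above Itgax and Itgax above Cd163 in 8 of 8 samples, with no overlap of the ranges. The ranges of the other neighbours overlapped. Marco exceeded Cd68 in 6 of 8 samples and Csf1r exceeded Adgre1 in 6 of 8, while Cd68 and Fabp4, Mrc1 and Csf1r, and Cd163 and Siglecf were each in that order in 4 of 8. The steps within the plateau from Cd68 to Fabp4 and from Mrc1 to Adgre1 were thus no larger than the spread between mice.

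**Figure D1:**
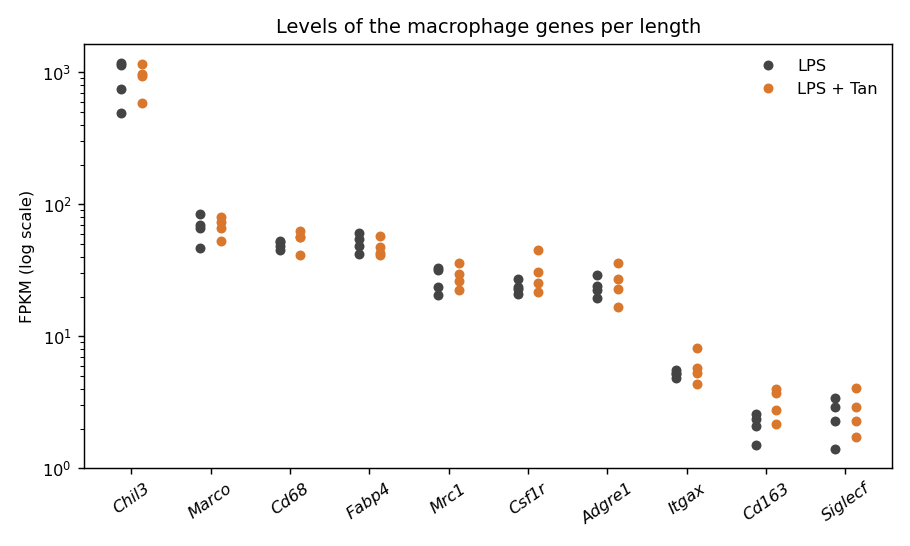
FPKM of the 10 macrophage genes in each sample on a log axis, with LPS samples in grey and LPS + Tan samples in orange (n = 4 per group). Chil3 lies between 489 and 1172 FPKM, 6 genes lie between 16.7 and 85.2 FPKM, and Itgax, Cd163 and Siglecf lie between 1.40 and 8.10 FPKM, with both groups overlapping for every gene.

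The macrophage genes were compared one by one between LPS + Tan and LPS, with no test of the group. The difference passed an unadjusted p of 0.05 in edgeR's quasi-likelihood test for 1 of the 10, Cd163, which was 1.45-fold higher in LPS + Tan, where 5.12% of all tested genes passed (2.87% higher and 2.25% lower). None of the 10 also passed an absolute log2 fold change of 1, the combined thresholds of the study's methods, which 0.649% of tested genes passed (0.350% higher and 0.299% lower). After Benjamini-Hochberg adjustment over all tested genes, 0 of the 10 and 0 of all 15706 genes passed 0.05 in this test (0% of the tested genes). DESeq2 called 35 genes and the likelihood ratio test of edgeR 23 genes, with none of the 10 among them. For none of the 10 were the groups free of overlap in CPM (counts scaled to the depth of the tested genes with TMM factors), and 2.73% of all tested genes were free of it, so that a count of 0 among 10 is near that share. The log2 fold change was above 0 for 8 genes and below 0 for 2, beside 51.8% of all tested genes above 0. Its median was 0.07 over the 10 genes and 0.01 over all tested genes.

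The intervals state how large a difference could have gone unseen. For 9 of the 10 genes the 95% interval of the fold change lay within a 2-fold change in either direction, and for 6 of the 10 within 1.5-fold. The exception to the wider bound was Cd163, whose interval ran from 1.04 to 2.02. The median within-group SD of the 10 genes was 0.33 on the log2 CPM scale, against 0.21 over all tested genes with counts in every sample. Cd68, at 0.17, and Fabp4, at 0.19, lay below that median of all genes.

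**Figure D2:**
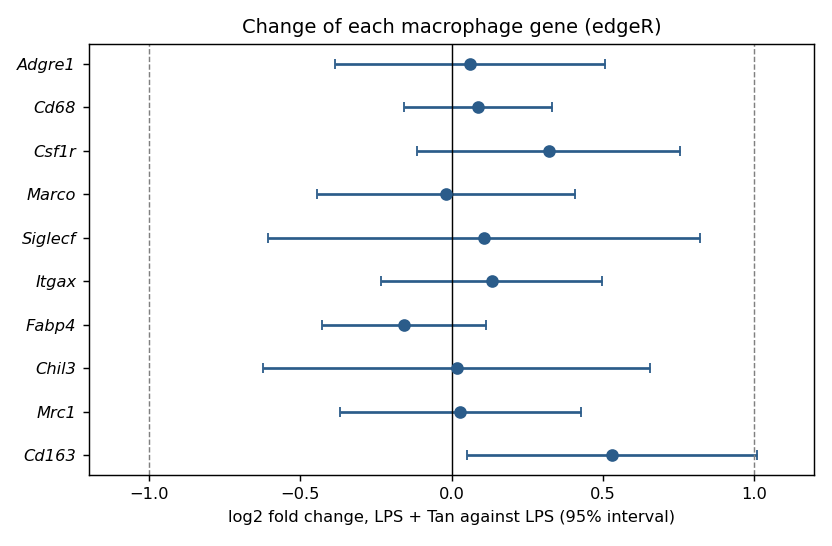
Log2 fold change of each macrophage gene in LPS + Tan against LPS from edgeR, with 95% intervals as bars and dashed lines at a log2 fold change of 1 in either direction. The interval of Cd163, from 0.05 to 1.01, lies above 0, and the other 9 intervals cover 0.

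Among the general macrophage markers, Adgre1 was at 76.7, 97.4, 83.8 and 66.1 CPM in LPS replicates 1 to 4 and at 116, 55.6, 86.8 and 79.1 CPM in LPS + Tan replicates 1 to 4. Its highest and its lowest value both came from the LPS + Tan group. The means of 81.0 ± 13.1 and 84.5 ± 25.1 CPM (SD, n = 4 each) gave a log2 fold change of 0.06 (SE 0.20, unadjusted p of 0.769 and adjusted p = 0.989, edgeR). Without LPS + Tan replicate 1 the log2 fold change was -0.14, and without LPS replicate 4 it was -0.03, so its direction rested on single animals.

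Cd68 varied least of the 10 genes between mice of one group, with an SD of 0.17 on the log2 CPM scale. It had 61.3, 65.4, 59.1 and 65.6 CPM in the LPS samples and 76.6, 70.3, 67.2 and 53.1 CPM in the LPS + Tan samples. In 3 of the 4 LPS + Tan samples it was above every LPS sample, and in the remaining sample, replicate 4, it was below all of them. The log2 fold change was 0.09 (SE 0.11, unadjusted p of 0.444, adjusted p = 0.972, edgeR), and it lay between 0.013 without LPS + Tan replicate 1 (unadjusted p of 0.911) and 0.18 without LPS + Tan replicate 4 (unadjusted p of 0.0368).

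Csf1r had the largest fold change of the 3 general markers. Its CPM values were 93.1, 87.3, 111 and 82.3 in LPS and 170, 97.4, 113 and 85.8 in LPS + Tan. LPS + Tan replicate 1 stood well above all other samples, LPS + Tan replicate 3 lay just above the LPS group, and the other 2 lay within its range. The group means were 93.4 ± 12.4 and 117 ± 37.3 CPM, with a log2 fold change of 0.32 (SE 0.20, unadjusted p of 0.132, adjusted p = 0.928, edgeR). This was 0.08 without LPS + Tan replicate 1 and 0.44, with an unadjusted p of 0.0403, without LPS + Tan replicate 4. The genes for both ligands of the receptor were close between the groups, Csf1 at 289 CPM in LPS and 297 CPM in LPS + Tan (log2 fold change 0.04, unadjusted p of 0.766, adjusted p = 0.989, edgeR) and Il34 at 18.4 and 19.2 CPM (0.07, unadjusted p of 0.568, adjusted p = 0.982).

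The 5 alveolar genes lay on both sides of 0, with log2 fold changes from -0.16 for Fabp4 to 0.13 for Itgax and a median of 0.02. Marco was at 129, 133, 171 and 91.2 CPM in LPS and at 149, 126, 95.9 and 146 CPM in LPS + Tan. The LPS samples spanned the whole range of the LPS + Tan samples. Its log2 fold change was -0.02 (SE 0.19, unadjusted p of 0.925, adjusted p = 0.998, edgeR) and turned to 0.02 when the counts were scaled by library totals only.

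Siglecf was a low transcript with 148 to 439 reads per sample, and its level differed 2.97-fold between the lowest and the highest sample. The values were 8.08, 9.22, 6.45 and 3.84 CPM in LPS and 5.98, 7.91, 4.45 and 11.4 CPM in LPS + Tan. Both groups held low and high animals, and the log2 fold change was 0.11 with a 95% interval from -0.61 to 0.82 (unadjusted p of 0.745, adjusted p = 0.989, edgeR). Without LPS + Tan replicate 4 it was -0.18, and without LPS replicate 4 it was -0.09.

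Chil3 showed a similar spread, with a 2.35-fold range. It was at 1768, 1790, 785 and 1167 CPM in LPS and at 1390, 1479, 858 and 1849 CPM in LPS + Tan. Replicate 3 was the low animal in both groups. The means of 1378 ± 489 and 1394 ± 409 CPM differed by 0.02 on the log2 scale (SE 0.29, unadjusted p of 0.954, adjusted p = 0.998, edgeR). That value was between -0.18 and 0.19 with each animal left out in turn, and it was below 0 in 4 of these 8 fits. Chil4, a close copy of Chil3 with which reads could be shared, had 2 to 11 reads per sample, against 30056 to 71128 for Chil3.

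Fabp4 and Itgax were comparatively even. Fabp4 was at 49.5, 53.6, 39.1 and 43.7 CPM in LPS and at 36.1, 42.3, 48.7 and 39.6 CPM in LPS + Tan, a log2 fold change of -0.16 (SE 0.12, unadjusted p of 0.227, adjusted p = 0.940, edgeR). It was the only one of the 10 genes whose log2 fold change stayed below 0 under every alternative and with every animal left out, from -0.24 to -0.09. Its paralog Fabp5, also expressed in alveolar macrophages, had 57.1 ± 16.8 and 50.9 ± 5.15 CPM (log2 fold change -0.17, unadjusted p of 0.421, adjusted p = 0.972).

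Itgax had 24.5, 22.6, 21.7 and 22.6 CPM in LPS and 24.2, 34.9, 21.8 and 19.3 CPM in LPS + Tan. LPS + Tan replicate 2 was the single high sample. With it the log2 fold change was 0.13 (SE 0.16, unadjusted p of 0.440, adjusted p = 0.972, edgeR), and without it the value was -0.07.

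Fabp4 is also a gene of adipocytes and capillary endothelium, Siglecf of eosinophils and Itgax of dendritic cells, and markers of these cells were read beside them. Of 7 adipocyte genes 4 were tested, and their summed level was 2.38 to 4.53 CPM in LPS and 2.37 to 5.88 CPM in LPS + Tan, with Adipoq below 1 CPM in every sample. The 7 eosinophil genes, of which 5 were tested, had a summed level of 348 to 423 and 223 to 382 CPM, most of it from Cd24a, a gene that epithelium and other leukocytes also express. The defining eosinophil gene Epx had 0.157 to 0.441 CPM in LPS and 0.0972 to 0.636 CPM in LPS + Tan. The summed level of the 10 dendritic cell genes, of which 8 were tested, was 159 to 188 CPM in LPS and 137 to 163 CPM in LPS + Tan, and Clec9a was below 1 CPM in every sample. The 10 capillary genes summed to 3425 to 4474 and 4081 to 4778 CPM. No gene of these lists was at 0 in every sample, and the part of these cells in the levels of Fabp4, Siglecf and Itgax was not tested.

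**Figure D3:**
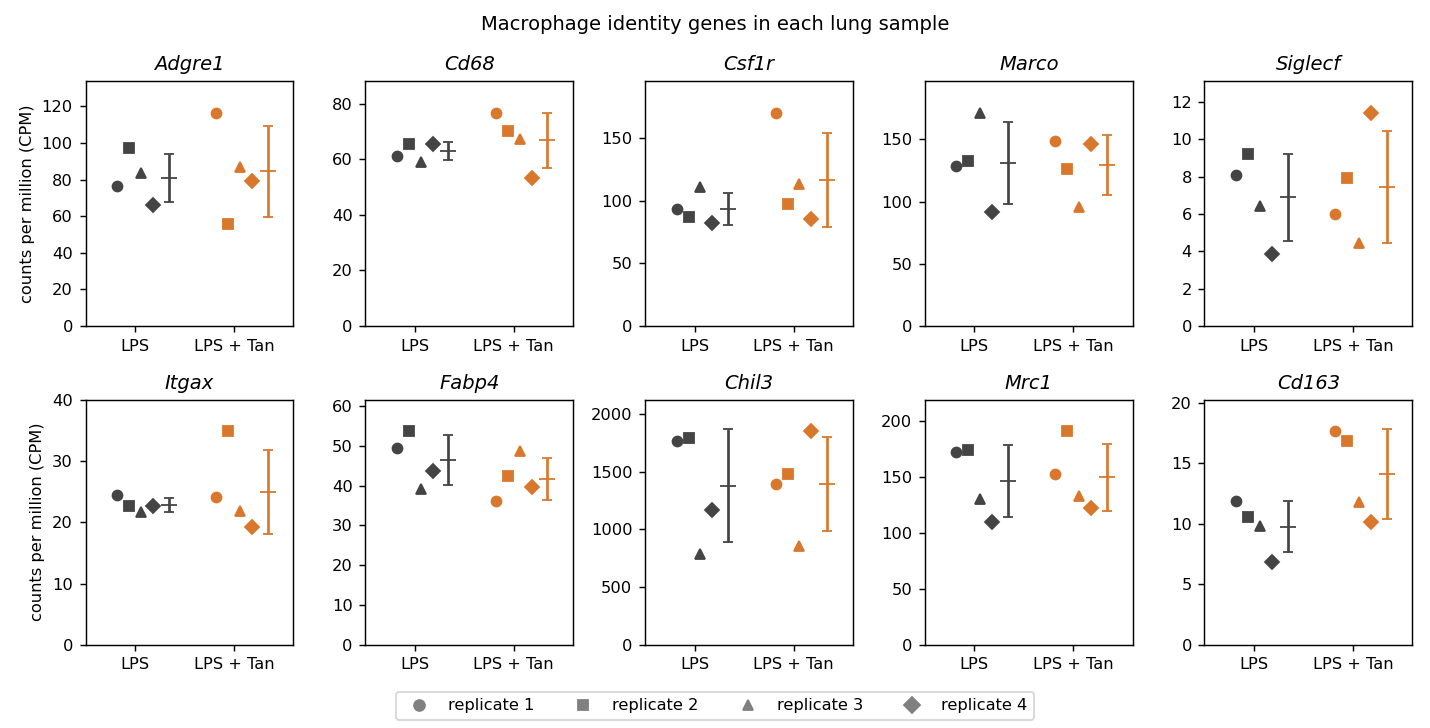
CPM of each macrophage gene in each of the 8 samples, with LPS samples in grey, LPS + Tan samples in orange and the group mean with its SD beside them (n = 4 per group). The values of the groups overlap in all 10 panels, and Cd163 has the largest fold change of the 10, from a mean of 9.75 to 14.1 CPM.

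Cd163 was the single gene of the 10 to pass the unadjusted threshold. It had 11.8, 10.5, 9.83 and 6.82 CPM in LPS and 17.6, 16.8, 11.8 and 10.1 CPM in LPS + Tan. Replicates 1 and 2 of LPS + Tan were above all LPS samples, and replicates 3 and 4 lay among the LPS samples. From 9.75 ± 2.13 to 14.1 ± 3.69 CPM, the log2 fold change was 0.53 (SE 0.22, unadjusted p of 0.0332, adjusted p = 0.924, edgeR). The counts behind these values were 263 to 463 reads in LPS and 390 to 716 reads in LPS + Tan.

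The Cd163 difference did not withstand the loss of several single animals. Its log2 fold change stayed between 0.39 and 0.66, but the unadjusted p was 0.0565 without LPS replicate 3, 0.0855 without LPS replicate 4, 0.102 without LPS + Tan replicate 1 and 0.0868 without LPS + Tan replicate 2. The adjusted p lay between 0.378 and 0.9999 over all alternatives. Whether counting used strand is not given in the sources used here, so that reads of Cd163 and of the antisense gene Gm52877 within it cannot be told apart. Gm52877, named after its values were seen, had 162 to 233 reads in LPS and 107 to 388 reads in LPS + Tan, with a log2 fold change of 0.09 (SE 0.35, unadjusted p of 0.793, adjusted p = 0.991, edgeR).

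Mrc1 did not pass, and its group means were close. It was at 173, 175, 130 and 110 CPM in LPS and at 153, 191, 133 and 122 CPM in LPS + Tan. In both groups replicates 1 and 2 were the high samples, and the means were 147 ± 32.1 and 150 ± 30.3 CPM. The log2 fold change of 0.03 (SE 0.18, unadjusted p of 0.878, adjusted p = 0.998, edgeR) corresponded to a fold change of 1.02 with a 95% interval from 0.774 to 1.34. Without LPS + Tan replicate 2 it was -0.11, without LPS replicate 4 it was -0.09 and without LPS replicate 3 it was -0.03.

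The study stained lung for F4/80 together with CD206 and reported a larger share of double-positive cells with tangeretin. By RT-PCR it also reported CD206 mRNA in lung as higher with tangeretin than with LPS alone. Beside the staining, the ratio of Mrc1 to Adgre1 within a sample was read here, in which the scaling of the library cancels. It is not a share of stained cells. As a ratio of FPKM it was 1.42, 1.13, 0.978 and 1.05 in LPS and 0.827, 2.16, 0.964 and 0.973 in LPS + Tan. A single animal, LPS + Tan replicate 2, had a ratio above all others, and the remaining 3 animals of that group were below all LPS samples. The difference of the mean log2 ratios was 0.01 (exact two-sided permutation test over 70 arrangements, p = 1, where the smallest possible p is 0.0286). Without LPS + Tan replicate 2 it was -0.30, with an exact permutation p of 0.0571, the smallest that 3 against 4 samples can give. With Cd68 in place of Adgre1 it was -0.04 (exact permutation p = 0.857). RNA of whole lung gives both transcripts summed over all cells and does not show whether they are in the same cell.

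The ratio of Cd163 to Adgre1 was 0.0766 to 0.115 in LPS and 0.0953 to 0.225 in LPS + Tan, a difference of 0.50 in mean log2 ratio, and that of Csf1r to Adgre1 differed by 0.25. The ratios to Adgre1 of the other 7 genes differed by -0.18 to 0.07. These ratios are given as a description with no test.

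High and low values of the 10 genes did not fall on the same animals throughout. LPS replicate 4 had the lowest value of all 8 samples for 5 genes (Mrc1, Marco, Siglecf, Cd163 and Csf1r), and LPS + Tan replicate 1 had the highest for 4 (Adgre1, Cd68, Cd163 and Csf1r) and the lowest for Fabp4. LPS + Tan replicate 2 was highest for Mrc1 and Itgax and lowest for Adgre1. LPS + Tan replicate 4 was highest for Siglecf and Chil3 and lowest for Cd68 and Itgax. The animals thus differed in which of the macrophage genes was high.

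The 45 pairs among the 10 genes were correlated over the 8 samples in log2 CPM. Pearson's r was above 0 for 30 pairs and below 0 for 15, with a median of 0.20. By exact permutation over all pairings of the samples 2 pairs had an unadjusted p below 0.05, and 0 pairs passed after Benjamini-Hochberg adjustment over the 45 pairs, where the lowest adjusted p was 0.639. The highest r was that of Siglecf and Chil3, at 0.71 (exact permutation p = 0.0521, adjusted p = 0.639), with Spearman's rho at 0.83 (exact permutation p = 0.0154, adjusted p = 0.628). It was 0.69 without the 2 samples farthest from the median of Siglecf. Mrc1 and Itgax had r = 0.71 (exact permutation p = 0.0240, adjusted p = 0.639) and rho = 0.79 (exact permutation p = 0.0279, adjusted p = 0.628). Their r was 0.80 without the 2 samples farthest from the median of Mrc1. With 1 sample left out it lay between 0.58 and 0.81, and over 10 alternatives the exact permutation p reached 0.163.

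Mrc1 and Cd163 had r = 0.71 (exact permutation p = 0.0473, adjusted p = 0.639) and rho = 0.74 (exact permutation p = 0.0458, adjusted p = 0.648). Without LPS replicate 4 and LPS + Tan replicate 2, the samples farthest from the median of Mrc1, r was 0.28. With 1 sample left out it lay between 0.53 and 0.82, and over 10 alternatives the exact permutation p reached 0.253. Within the groups r was 0.90 in LPS and 0.85 in LPS + Tan. After each value was centred on its group mean, r was 0.87. Adgre1 and Mrc1, the pair that the staining joined, had r = -0.03 (exact permutation p = 0.946, adjusted p = 0.992) and rho = 0.05 (exact permutation p = 0.935, adjusted p = 0.999), which became 0.62 in r without replicates 1 and 2 of LPS + Tan. The lowest r was -0.54, between Fabp4 and Csf1r (exact permutation p = 0.169, adjusted p = 0.691), with rho = -0.40 (exact permutation p = 0.327, adjusted p = 0.866), and r was 0.14 without the 2 samples farthest from the median of Fabp4.

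**Figure D4:**
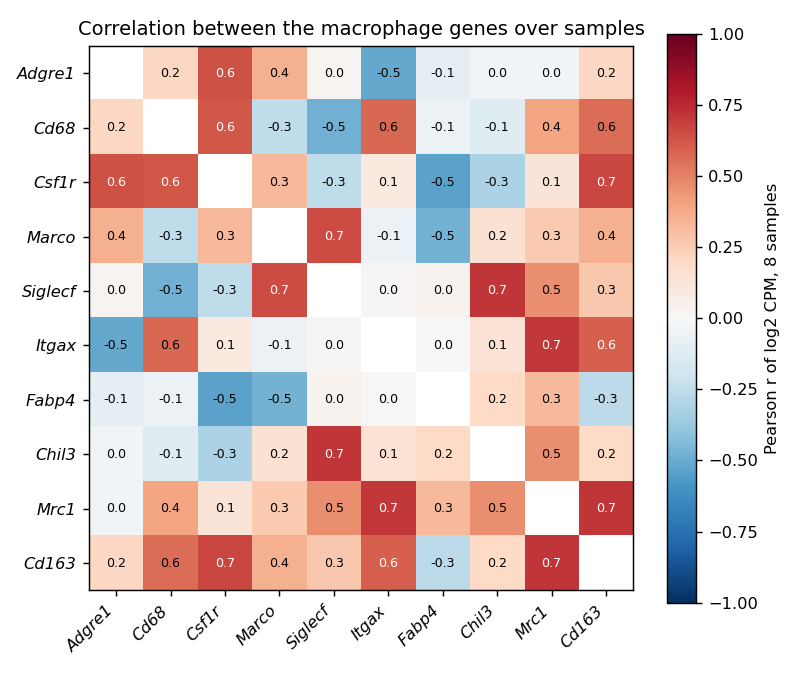
Pearson r of log2 CPM between each pair of the 10 macrophage genes over the 8 samples, coloured from blue (negative) to red (positive). The pairs Siglecf and Chil3, Mrc1 and Cd163, and Mrc1 and Itgax are at 0.71, and the lowest pair, Fabp4 and Csf1r, is at -0.54.

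For each of the 10 genes, the other tested genes with the most similar course over the 8 samples, up to 2 for each, are given as a description, since these are the highest correlations out of all tested genes. Adgre1 was followed most closely by Tifab (r = 0.98) and Aldh9a1 (0.96), Cd68 by Gm46435 (0.99) and Mbd6 (0.97), and Csf1r by Sh3rf3 and Rmnd5a (0.98 each). Among the alveolar genes, Marco was followed by Nab1 (0.98) and Slc25a5 (0.96), Siglecf by Zc3h15 (0.97) and Itgae (0.96), Itgax by Ppfibp1 (0.97) and Iffo2 (0.96), Fabp4 by Gm16146 and Iqca (0.94 each) and Chil3 by Ptgr1 (0.98) and Lgi3 (0.95). Mrc1 was followed by Nop56 (0.95) and Cd163 by Itpripl1 and Mkrn3 (0.95 each). None of these genes was another of the 10 macrophage genes.

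Other genes of the same cells were read from lists. Of 23 other alveolar macrophage genes, all tested, 0 were higher and 1 was lower in LPS + Tan at an unadjusted p below 0.05. Over all tested genes 2.87% were higher and 2.25% lower, so that 1 call among 23 is near the share. The median log2 fold change of the list was -0.09. The gene that passed was Slc7a2, an arginine transporter, at 79.7 ± 8.06 CPM in LPS and 63.1 ± 11.5 CPM in LPS + Tan (log2 fold change -0.34, unadjusted p of 0.0262, adjusted p = 0.924, edgeR). The unadjusted p of Slc7a2 was 0.0593 to 0.081 in 4 of the 8 fits that left out an animal (LPS replicate 4 and LPS + Tan replicates 1, 3 and 4). With all samples kept it was 0.0536 with library totals only and 0.0551 to 0.0646 in the 3 limma fits of FPKM. Pparg, the nuclear receptor of the alveolar macrophage programme, had 8.42 and 9.89 CPM (log2 fold change 0.23, unadjusted p of 0.274, adjusted p = 0.950).

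Of 25 other interstitial macrophage genes 22 were tested, with a median of 0.07. Of these 1 was higher and 0 were lower, near the 2.87% higher and 2.25% lower of all tested genes. The gene was C1qa, a chain of complement C1q, which interstitial macrophages make in large amounts. C1qa was at 42.0 ± 4.63 CPM in LPS and 51.0 ± 3.66 CPM in LPS + Tan (log2 fold change 0.28, unadjusted p of 0.0155, adjusted p = 0.924, edgeR), and its unadjusted p stayed below 0.05 under every alternative and with every animal left out. The other chains, C1qb and C1qc, had log2 fold changes of 0.15 (unadjusted p of 0.184, adjusted p = 0.933) and 0.19 (unadjusted p of 0.0942, adjusted p = 0.924).

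The summed level of the interstitial list, 3961 to 5182 CPM in LPS and 3432 to 3987 CPM in LPS + Tan, was led by Lyve1, which lymphatic endothelium also expresses, as it does Mrc1. Lyve1 was at 2330 ± 665 CPM in LPS and 1637 ± 439 CPM in LPS + Tan (log2 fold change -0.51, unadjusted p of 0.0509, adjusted p = 0.924). The unadjusted p of Lyve1 was below 0.05 in 7 of 20 alternatives, and its log2 fold change lay between -0.29 without LPS replicate 3 (unadjusted p of 0.178) and -0.69 without LPS + Tan replicate 2 (unadjusted p of 0.0129). Of the 7 lymphatic endothelial genes, all 7 had a log2 fold change below 0, as had 7571 of all 15706 tested genes, and none passed. Their median was -0.13, and their summed level was 2107 to 3639 CPM in LPS and 1496 to 2465 CPM in LPS + Tan. Lyve1, which is in both lists, gave most of that sum, with 1831 to 3304 and 1225 to 2200 CPM. The part of lymphatic endothelium in the levels of Lyve1 and Mrc1 was not tested, nor was the part of alveolar macrophages in that of Mrc1.

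The 18 growth factors, receptors and transcription factors of macrophages, all tested, had a median of -0.02. Of these 1 was higher and 0 were lower, near the 2.87% higher and 2.25% lower of all tested genes. Klf4, a transcription factor of monocytes and of endothelium, was at 105 ± 25.9 CPM in LPS and 136 ± 10.3 CPM in LPS + Tan (log2 fold change 0.36, unadjusted p of 0.0382, adjusted p = 0.924, edgeR). In 6 of the 8 fits that left out an animal its unadjusted p was above 0.05, up to 0.110 without LPS replicate 2, and the call stood without LPS replicate 4 or LPS + Tan replicate 2. Spi1, which encodes PU.1, was at 120 and 129 CPM (log2 fold change 0.09, unadjusted p of 0.528, adjusted p = 0.979), and the GM-CSF gene Csf2 was at 13.7 and 11.6 CPM (-0.25, unadjusted p of 0.0927, adjusted p = 0.924).

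The called genes of the list of other alternative activation genes lay on the other side of 0 from Cd163. Of its 19 genes 17 were tested, of which 0 were higher and 5 were lower in LPS + Tan, where 2.25% of all tested genes were lower, with a median log2 fold change of -0.16. Ccl22, a chemokine of macrophages and dendritic cells, was at 57.2 ± 14.6 CPM in LPS and 29.2 ± 8.87 CPM in LPS + Tan (log2 fold change -0.97, unadjusted p of 0.00201, adjusted p = 0.850, edgeR). Pdcd1lg2, the checkpoint ligand PD-L2, was at 1.57 ± 0.287 and 0.863 ± 0.0971 CPM (-0.86, unadjusted p of 0.00429, adjusted p = 0.895). The groups did not overlap for either gene.

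Retnla, which encodes the secreted protein RELM-alpha of macrophages and airway epithelium, was at 755, 868, 988 and 563 CPM in LPS and at 244, 541, 297 and 547 CPM in LPS + Tan (log2 fold change -0.96, unadjusted p of 0.00587, adjusted p = 0.922, edgeR). Tgm2, a transglutaminase also abundant in endothelium, was at 1876 ± 281 and 1263 ± 282 CPM (-0.57, unadjusted p of 0.00817, adjusted p = 0.924). The groups were separate for both genes, with LPS + Tan lower. The fifth gene, Igf1, which fibroblasts express as well, had a log2 fold change of -0.94 (unadjusted p of 0.0169, adjusted p = 0.924) with overlapping groups, and was named after its values were seen. The unadjusted p of Ccl22, Pdcd1lg2, Retnla and Tgm2 stayed below 0.05 under every alternative and with every animal left out, and the log2 fold change of Pdcd1lg2, a gene of few reads, was -0.62 with limma on log2(FPKM + 0.1) and -0.21 on log2(FPKM + 1). The adjusted p of Ccl22 was 0.0270 with DESeq2 and 0.0498 with edgeR's likelihood ratio test. Retnla and Tgm2 gave most of the summed level of the list, 3132 to 4477 CPM in LPS and 2127 to 3012 CPM in LPS + Tan.

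By RT-PCR of lung the study reported Arg1 and Il10 mRNA, like that of CD206, as higher with tangeretin than with LPS alone. In the sequenced samples neither Arg1 nor Il10 passed. Arg1, the arginase of alternatively activated macrophages, was at 35.3, 8.89, 30.1 and 21.1 CPM in LPS and at 38.9, 47.3, 31.6 and 30.3 CPM in LPS + Tan. LPS replicate 2 was the low sample, and LPS replicate 1 lay among the LPS + Tan samples. The log2 fold change was 0.63 (SE 0.34, unadjusted p of 0.0937, adjusted p = 0.924, edgeR) and lay between 0.35 without LPS replicate 2 (unadjusted p of 0.118) and 0.89 without LPS replicate 1 (unadjusted p of 0.0312). Il10 was at 6.21 ± 1.46 and 6.56 ± 3.92 CPM (0.08, unadjusted p of 0.832, adjusted p = 0.996). Its direction was not settled, since the value was -0.42 without LPS + Tan replicate 2 and below 0 in 5 of 20 alternatives.

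Of 15 classical activation genes 13 were tested, of which 0 were higher and 3 were lower, beside 2.87% higher and 2.25% lower over all tested genes, with a median of -0.24. Nos2, the inducible nitric oxide synthase, was at 74.9, 111, 109 and 81.1 CPM in LPS and at 36.6, 71.0, 41.4 and 82.6 CPM in LPS + Tan. LPS + Tan replicate 4 lay within the LPS range and the other 3 below it, with a log2 fold change of -0.70 (SE 0.26, unadjusted p of 0.0211, adjusted p = 0.924, edgeR). The co-stimulatory genes Cd80 and Cd86 had log2 fold changes of -0.37 (unadjusted p of 0.0190, adjusted p = 0.924) and -0.34 (unadjusted p of 0.0274, adjusted p = 0.924). Each of the 3 calls was lost without some single animals, with unadjusted p-values in brackets, for Nos2 without LPS replicate 2 (0.0573), LPS replicate 3 (0.0531) or LPS + Tan replicate 3 (0.0600), for Cd80 without LPS replicate 3 (0.0613) or LPS + Tan replicate 3 (0.0530), and for Cd86 in 4 such fits, with LPS replicate 2 (0.0829), LPS replicate 3 (0.0704), LPS + Tan replicate 1 (0.0532) or LPS + Tan replicate 4 (0.0651) left out. With all samples kept the unadjusted p of Cd86 was 0.0587 with library totals only and 0.0614 to 0.0657 in the 3 limma fits of FPKM.

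The cytokine genes Tnf, Il6 and Il1b had log2 fold changes of 0.09 (unadjusted p of 0.657, adjusted p = 0.985), -0.35 (unadjusted p of 0.400, adjusted p = 0.967) and 0.13 (unadjusted p of 0.585, adjusted p = 0.982). For Tnf the value was below 0 without LPS replicate 4 or LPS + Tan replicate 1, and for Il1b without LPS + Tan replicate 1. That of Il6 lay between -0.83 without LPS + Tan replicate 2 (unadjusted p of 0.0309) and -0.13 without LPS replicate 3 (unadjusted p of 0.760), and was -0.17 without LPS + Tan replicate 1.

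**Figure D5:**
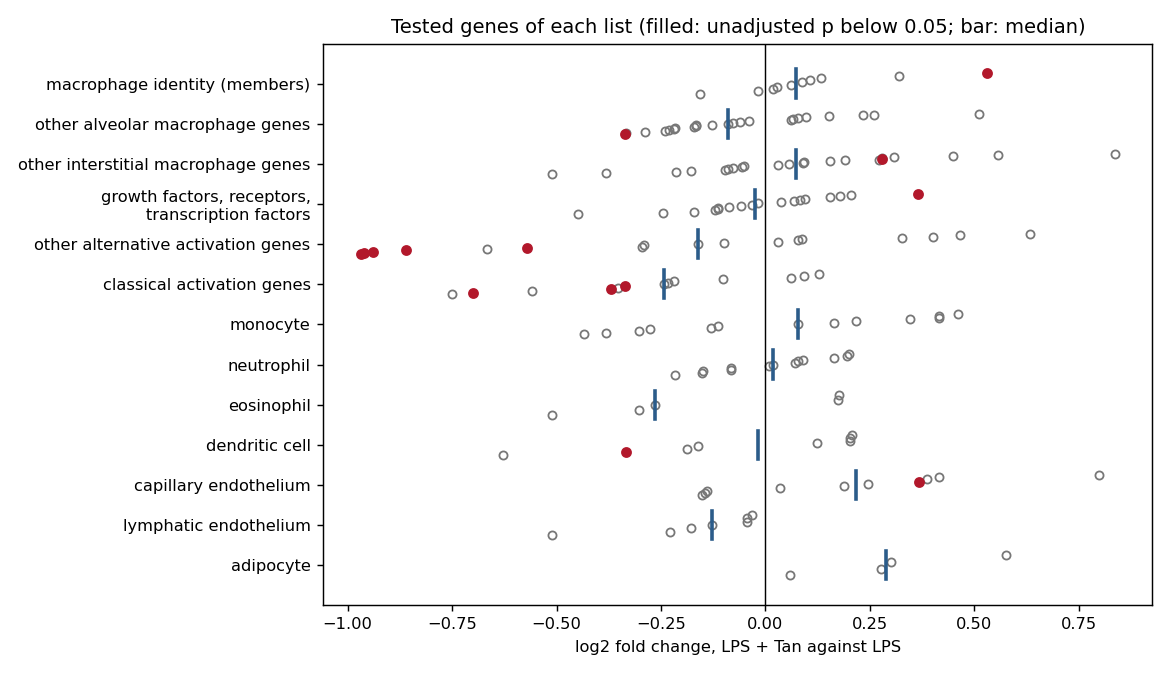
Log2 fold change, LPS + Tan against LPS, of the tested genes of each list, with filled points for an unadjusted p below 0.05 and a bar for the median of the list. The median lies between -0.26 and 0.29 over the lists of other genes, and the filled points of the alternative activation list, 5 of 17, all lie below 0.

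Markers of the other leukocytes that enter the lung after LPS were read in the same way, beside 2.87% higher and 2.25% lower over all tested genes. Of 13 monocyte genes 0 passed in either direction, with log2 fold changes from -0.43 to 0.46, a median of 0.08 and a summed level of 3352 to 4429 CPM in LPS and 3156 to 4001 CPM in LPS + Tan. The lowest p among them was that of Fn1 (log2 fold change -0.38, unadjusted p of 0.0546, adjusted p = 0.924, edgeR). Of 13 neutrophil genes 0 passed, with a median of 0.02 and a summed level of 4819 to 6672 and 4628 to 6391 CPM. Mmp8, a collagenase of neutrophil granules, had the lowest p of that list (-0.22, unadjusted p of 0.207, adjusted p = 0.936). Monocytes and developing neutrophils also express Chil3, and the part of these cells in its level was not tested. The neutrophil alarmins S100a8 and S100a9 had log2 fold changes of 0.01 (unadjusted p of 0.955, adjusted p = 0.998) and 0.02 (unadjusted p of 0.914, adjusted p = 0.998).

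Of the dendritic cell genes Fscn1, an actin bundling protein of mature dendritic cells, was lower at 103 ± 12.5 CPM in LPS and 81.7 ± 8.57 CPM in LPS + Tan (log2 fold change -0.33, unadjusted p of 0.0124, adjusted p = 0.924, edgeR), and the median of that list was -0.02. Cd24a of the eosinophil list had -0.30 (unadjusted p of 0.0868, adjusted p = 0.924) with a list median of -0.26, and Adipoq of the adipocyte list 0.58 (unadjusted p of 0.527, adjusted p = 0.979) with a list median of 0.29. Kdr, a receptor of capillary endothelium, was at 259 ± 37.4 CPM in LPS and 334 ± 65.3 CPM in LPS + Tan (0.37, unadjusted p of 0.0364, adjusted p = 0.924), and the median of the capillary list was 0.22. The call of Kdr was lost in 5 of the 8 fits that left out an animal (LPS replicates 1, 2 and 3 and LPS + Tan replicates 1 and 2), with an unadjusted p of up to 0.120.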

How the data were processed

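Libraries of lung RNA from 4 LPS and 4 LPS + Tan mice took their group from the labels, and 0 value columns lacked a sample. The authors deposited raw read counts per gene, without normalization, and FPKM values, which are these counts divided by gene length and total count. The submitters' processing notes name GRCm38 (mm10). For aligner, annotation and counting tool, nothing is given in the sources used here. TRIzol and the VAHTS Universal V6 kit are named in the methods, whereas the labels give another extraction and library kit.

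Counts were filtered by filterByExpr, scaled by TMM and tested with the quasi-likelihood test of edgeR 4.0.16 in R 4.3.3, without covariates, over 15706 genes, with Benjamini-Hochberg adjustment. CPM were divided by the total of the tested genes times its TMM factor. Levels of different genes were compared as FPKM. Single values were compared by exact permutation tests in scipy 1.17.1. The scripts were tested on simulated data. All pairs of samples within a group differed by more than sampling noise. Nothing in the labels says how far the samples of one group were handled separately, so p-values measure the spread between these samples.

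The 10 genes, the lists and the tests were chosen with earlier results of these data known. From each list the text names the genes past an unadjusted p of 0.05, at most the 4 with the lowest p, otherwise the gene with the lowest p, and in addition Arg1, Il10, Nos2, Tnf, Il6, Il1b, Chil4 and Fabp5, and for each of the 10 genes the 2 genes with the highest r, of which 1 is not reported here. Csf1, Il34, Csf2, Spi1, Pparg, C1qb, C1qc, S100a8, S100a9, Epx, Clec9a, Igf1, Gm52877, Scgb1a1, Sftpc and Ager were named for their role after values were seen. Alternatives were DESeq2 1.42.0, the likelihood ratio test, limma-voom and limma 3.58.1 on log2(FPKM + 1) and log2(FPKM + 0.1), other scalings and filters, a block on the replicate number, and leaving out single samples. Gene positions and promoters came from RefSeq on GRCm38.p6.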

Additional observations from a re-analysis of the deposited data

Results flagged for a closer look

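Single samples far from the rest of their group were looked for in 68 groups of 4 samples, which cover the 10 macrophage genes, the tested genes named by the rule on lists, Arg1, Il10, Nos2, Tnf, Il6, Il1b, Fabp5 and the ratio of Mrc1 to Adgre1. In each group, the gap between the highest or lowest sample and the next one was divided by the whole range. In 2 of them this quotient was above the 95% critical value of Dixon's test for 4 samples, where chance alone gives about 1 in 20 groups, or 3.4 of 68. The first was the ratio of Mrc1 to Adgre1 in LPS + Tan, where replicate 2 was at 2.16 and the next sample at 0.973, a quotient of 0.830 on the log2 scale. The second was Mmp8 in LPS, where replicate 3 was at 381 CPM and the next sample at 570 CPM, a quotient of 0.919. The cause was not tested for either.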

How the results depend on the processing

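None of the 10 macrophage genes passed an adjusted p of 0.05, or the combined thresholds (an unadjusted p of 0.05 and a fold change of 2), under any of 20 alternatives, and none was lower at an unadjusted p of 0.05. The number higher at an unadjusted p of 0.05 was 1, but 0 with limma on log2(FPKM + 1) of all genes and 0 to 3 with one sample left out, where 0 was reached without LPS replicate 3 or 4 or LPS + Tan replicate 1 or 2 and 3 (Cd163, Cd68 and Csf1r) without LPS + Tan replicate 4. Of the other list genes, 3 were higher and 10 lower, beside 2.87% higher and 2.25% lower over all tested genes. With DESeq2, limma on log2(FPKM + 1) and limma on log2(FPKM + 0.1) 5 were higher. With one sample left out 1 to 11 were higher and 7 to 21 lower. The extremes of 11 and 21 were both reached without LPS + Tan replicate 2, and 19 were lower without LPS + Tan replicate 4. Log2 fold changes that changed sign with a sample left out ranged from -0.14 to 0.22 for Adgre1, -0.11 to 0.12 for Mrc1, -0.16 to 0.14 for Marco, -0.18 to 0.29 for Siglecf, -0.18 to 0.19 for Chil3, -0.071 to 0.24 for Itgax, -0.13 to 1.45 for Adipoq, -0.42 to 0.28 for Il10, -0.074 to 0.23 for Tnf and -0.039 to 0.32 for Il1b. Marco was at 0.037 with each of the 3 limma fits of FPKM and at 0.023 with library totals only. Il10 was at -0.068 with limma-voom and -0.013 with limma on log2(FPKM + 0.1). The log2 ratio of Mrc1 to Adgre1 differed by -0.042 with Cd68 as denominator and by -0.30 to 0.16 with one sample left out. Over all genes, 55 were higher and 47 lower at the combined thresholds. These were 113 and 111 with DESeq2, 220 and 198 without a filter, 18 and 23 with 1 CPM required in 4 samples, 5 and 9 with limma and a pseudocount of 1, 19 and 21 with a pseudocount of 0.1, 5 and 6 with limma of all genes, and 37 to 113 and 38 to 125 with one sample left out. An adjusted p of 0.05 was passed by 35 genes with DESeq2, 23 with the likelihood ratio test, 2 with limma of all genes and 1 without LPS + Tan replicate 4. The cause of these differences was not tested.

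The labels do not say whether samples of the same replicate number were paired. Over genes, the deviations of same-numbered samples from their group means correlated at 0.12, -0.05, -0.15 and 0.00. Not every sample correlated best with its own number. These correlations cannot settle whether some samples were handled as pairs. With the replicate number as a block, 43 genes were higher and 55 lower at the combined thresholds, 4 list genes were higher and 14 lower, Il10 was at -0.047, Kdr had an unadjusted p of 0.0539 and Cd163 had a log2 fold change of 0.52 with an unadjusted p of 0.00319 and an adjusted p of 0.764. The unadjusted p fell below 0.05 in 4 of 20 alternatives for Fn1 and in 1 of 20 each for Mmp8, Cd24a and Fabp5. Depth limits the genes with few reads, such as Pdcd1lg2, Epx, Clec9a and Adipoq.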
